A study of Homo sapiens with 12 samples.

Results

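The genes described here are 42 translation factors, the proteins that start and drive protein synthesis on cytoplasmic ribosomes. They were chosen by gene name, by a rule that uses no measured values but with earlier results of these data known. The list makes up 42 of the 60671 genes in the expression table. They comprise 6 elongation genes, 5 genes of start site selection and subunit joining, 3 subunits of eIF2, 5 of eIF2B, 13 of eIF3, 9 genes of cap binding and the helicase step, and 1 release factor. All 42 reached a mean of at least 1 FPKM (fragments mapped to a gene, scaled to transcript length and to the size of the library), as did 11591 genes in all.

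The RNA came from cells labelled Jurkat, a line derived from a human T cell leukemia, in 4 groups of 3 libraries. NC cells, labelled wild type, carried a GFP vector according to the study's methods, and PTPN21 cells carried a lentiviral construct that expresses FLAG-tagged PTPN21, a non-receptor tyrosine phosphatase, from the SFFV promoter. Each kind of cell received either vincristine (VCR), a drug that blocks microtubule assembly, or the solvent DMSO for 48 h, which gives the groups NC+DMSO, NC+VCR, PTPN21+DMSO and PTPN21+VCR. The labels and the methods for RNA sequencing give no VCR dose. The methods do state one for other assays after 48 h of VCR, but whether it applied to these libraries is not stated. The design asks what VCR changed in each kind of cell, what PTPN21 changed with and without VCR, and whether the VCR response differed between the cells. No label ties the replicates to separate cultures, so p-values measure the spread between these libraries, which may be technical.

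Translation begins when eIF2 brings the initiator tRNA to the small ribosomal subunit, with eIF1, eIF1A, eIF3 and eIF5 in the same complex, and eIF2B recharges eIF2 with GTP between rounds. The eIF4 factors bind the mRNA cap and unwind the leader, and 4E-BP1, encoded by EIF4EBP1, competes for the cap-binding protein eIF4E. The eEF1 and eEF2 factors then deliver aminoacyl-tRNA and move the ribosome along. Many mRNAs of the translation machinery start with a C followed by a run of pyrimidines, the 5′ terminal oligopyrimidine motif, through which mTORC1 and LARP1 control their translation and stability.

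PTPN21 followed its label. It was at 0.0638 ± 0.0378 FPKM (SD, n = 3) in NC+DMSO and 0.367 ± 0.205 in NC+VCR, against 8.82 ± 1.48 in PTPN21+DMSO and 5.74 ± 1.21 in PTPN21+VCR. The cell type markers did not follow theirs. Of 9 T cell markers, CD3D alone reached 1 FPKM in all 12 libraries, while CD3E, CD247, CD28, LCK, ZAP70 and CD7 stayed below 1 FPKM in all 12, and CD2, CD5, CD4, CD8A, IL7R and BCL11B, added after the values were seen, did too. The myeloid marker LYZ and the epithelial markers EPCAM and KRT8 were at or above 1 FPKM in all 12, as were the erythroid genes HBG1, HBG2, HBZ and GATA1, which were also added afterwards. Other markers of the same kinds did not: the myeloid marker CD14 stayed below 1 FPKM in all 12, ITGAM reached it in 11 and the adult globin HBB in 1, while the B cell markers MS4A1 and CD79A stayed below it in all 12. These libraries therefore go against their T cell label and are called NC and PTPN21 cells here. The erythroid sum of HBG1, HBG2, HBZ and GATA1 moved with the groups, from 1227 to 2057 FPKM in NC+DMSO, 861 to 886 in NC+VCR, 3003 to 4169 in PTPN21+DMSO and 1051 to 1220 in PTPN21+VCR, and so did the summed EPCAM and KRT8, from 295 to 429, 801 to 981, 341 to 392 and 798 to 1308 FPKM in the same order. The part of these shifts in the results below was not tested. In bulk RNA, a change in the share of cells of one kind and a change in RNA per cell cannot be told apart. Estimated depth was 14400000 to 17800000 fragments in the NC libraries and 20500000 to 23900000 in the PTPN21 libraries, and NC+DMSO replicate 3 stood farthest from its group, with the lowest value of the 3 in 21 of the 42 factors.

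In NC+DMSO, levels spanned from EIF3F, a subunit of eIF3, at 6.99 ± 1.48 FPKM to EEF1A1, the carrier of aminoacyl-tRNA, at 3711 ± 408 FPKM (SD, n = 3). The 6 elongation genes together held 7324 ± 549 FPKM of the 13110 ± 547 FPKM of all 42 factors. After VCR, the sum of the 42 was 15844 ± 1693 FPKM in NC cells and 16733 ± 1790 FPKM in PTPN21 cells, the latter against 14086 ± 200 FPKM in PTPN21+DMSO. Most of that spread came from EEF1A1, which read 5559, 2891 and 5449 FPKM in NC+VCR and 6521, 7223 and 3510 FPKM in PTPN21+VCR. One library of each VCR group was thus below or among the DMSO libraries, which lay between 3247 and 4011 FPKM, and EEF1A1 passed no test.

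**Figure D1:**
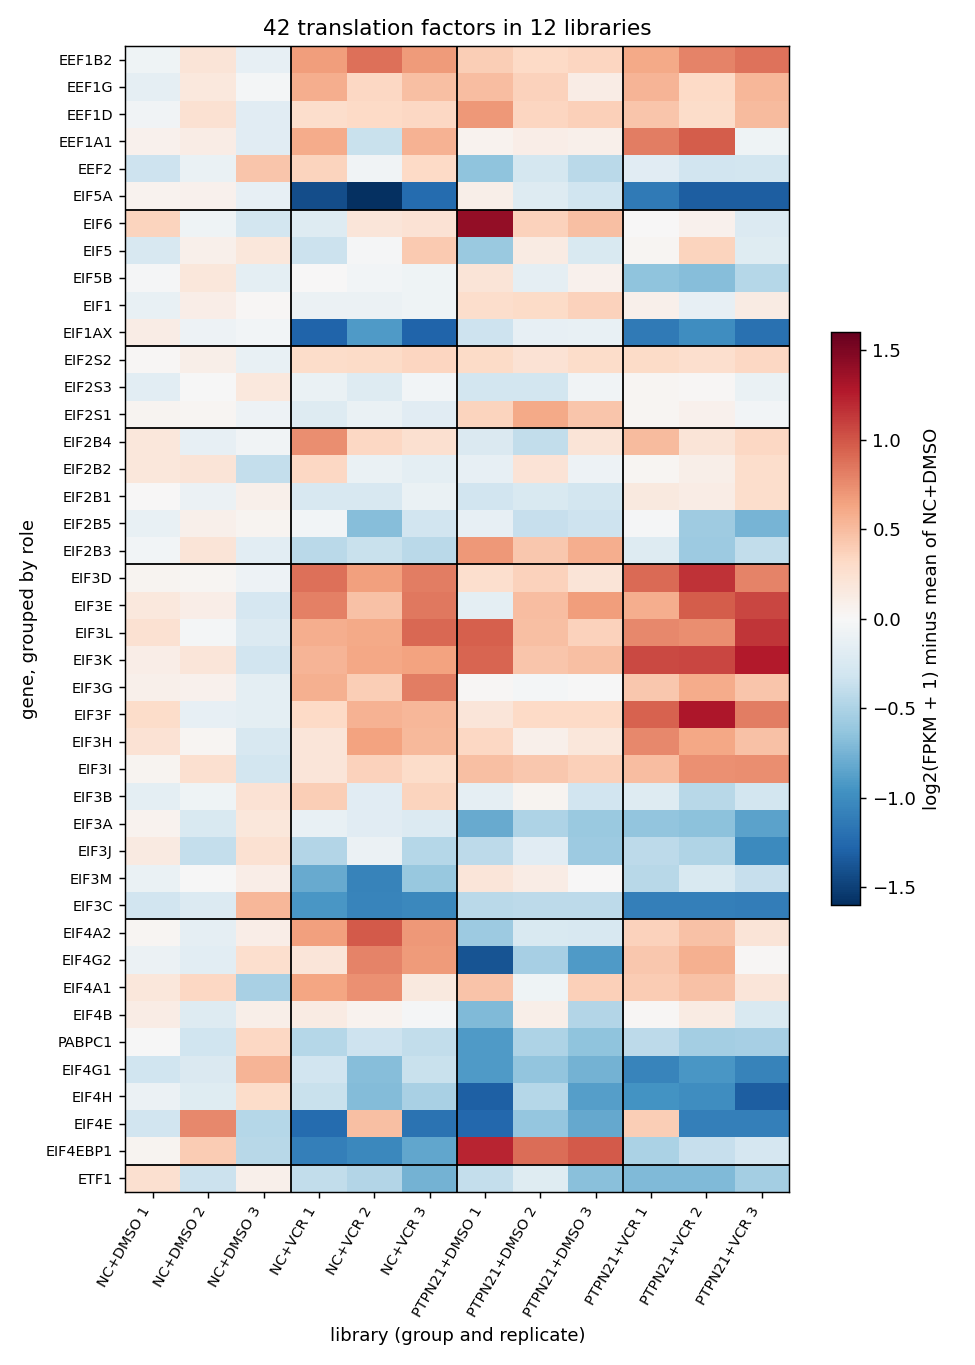
Rows are the 42 factors grouped by role, columns are the 12 libraries, and colour gives log2(FPKM + 1) minus the NC+DMSO mean of the gene (red higher, blue lower). EIF5A, EIF1AX and EIF3C are blue in all 6 VCR libraries, EIF3D and EIF3K are red in the same 6, and EIF4EBP1 is red in the 3 PTPN21+DMSO libraries.

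The listed transcription starts of the factors are described first, because many of them are known terminal oligopyrimidine genes. The windows shown were picked with the VCR calls given below already known. RefSeq promoter entries (GRCh38.p14) matched 33 of the 42 symbols. A start counted as a pyrimidine start if a C followed by at least 4 bases that are each C or T began within 3 bases of a listed start, on the strand of the gene only. A gene counted if any of its listed starts did. Of the 33 genes, 13 had such a start (39.4%), against 19.8% of the 8097 tested genes with an entry. Counted by single promoter, of which a gene can have more than 1, the share was 13.0% of 35116, so it is not a like measure. The following 30-base windows, read 5′ to 3′ along the gene with the pyrimidine run in capitals, show 4 factors that rose in at least 1 VCR comparison, 1 that fell in both despite such a start, and 3 that fell in at least 1 and lack it.
EIF3D: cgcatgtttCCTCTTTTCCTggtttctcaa
EIF4A2: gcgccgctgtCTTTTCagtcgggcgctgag
EEF1B2: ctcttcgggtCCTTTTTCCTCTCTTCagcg
EIF3F: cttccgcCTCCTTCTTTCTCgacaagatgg
EIF3M: gcccagttCCCTTTTCCggtcggcgtggtc
EIF1AX: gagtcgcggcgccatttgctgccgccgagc
EIF2B3: gctgtcagtcagaggcggcgtggagatcgc
EIF5B: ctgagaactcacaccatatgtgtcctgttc
The EIF3D window lies at chr22:36529147-36529176 on the minus strand, EIF4A2 at chr3:186783567-186783596 on the plus strand, EEF1B2 at chr2:206159885-206159914 on the plus strand and EIF3F at chr11:7987327-7987356 on the plus strand. That of EIF3M is chr11:32583821-32583850, plus strand, that of EIF1AX chrX:20141819-20141848, minus strand, that of EIF2B3 chr1:44986576-44986605, minus strand, and that of EIF5B chr2:99337379-99337408, plus strand. Each window joins the upstream flank to the first exon, so the capitals sit at or beside the first transcribed base. EEF1B2 has another listed start without the run, and none of the listed starts of EIF5A holds it. The windows are examples picked by response and start type. EEF1G, which rose in NC cells, and EIF2B1, which rose in PTPN21 cells, lack the run at their listed starts and are not shown.

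VCR in NC cells raised EIF3D, EIF4A2 and EEF1B2 and lowered EIF5A, EIF1AX and EIF3C most among the factors. Of the 42, 10 rose and 7 fell at an adjusted p under 0.05, which is 17 called where 36.2% of all tested genes were, 7.91% higher and 28.3% lower. The median log2 fold change of the 42 was 0.04, against −0.36 over all tested genes. In 23 of the 42 the NC+VCR and NC+DMSO libraries did not overlap, against 44.1% of all genes. A median ratio scaling between libraries, which brings the median of all genes to −0.04, turned the split of the factors into 18 higher and 4 lower, with 14.8% of all genes higher and 11.7% lower, while TPM scaling gave 9 and 9, with 6.41% and 32.9% of all genes. Without NC+DMSO replicate 3, 15 factors were called, 9 higher and 6 lower, with 6.8% of all genes higher and 21.0% lower.

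Among the 13 subunits of eIF3, the scaffold that joins the small subunit to the mRNA, 6 rose (EIF3D, EIF3E, EIF3L, EIF3K, EIF3G and EIF3H, by 0.45 to 0.79 on the log2 scale) and EIF3C and EIF3M fell. EIF3D, a subunit that can itself bind the cap of some mRNAs, read 172, 170 and 158 FPKM in NC+DMSO and 306, 262 and 295 FPKM in NC+VCR. Every VCR library was above every DMSO library, with a log2 fold change of 0.79 (SE 0.11, adjusted p = 0.000337). EIF3C, a core subunit, read 279, 295 and 496 FPKM in NC+DMSO and 180, 166 and 168 FPKM in NC+VCR. The VCR libraries were all lower, and replicate 3 was the high one of the DMSO group (log2 fold change −1.004, SE 0.17, adjusted p = 0.00104). EIF3CL, a near-identical gene, held 35.0% to 52.0% of the FPKM of the pair, so the reads of EIF3C are uncertain, but the sum of both also went from 639 ± 111 to 349 ± 18.3 FPKM.

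Among the elongation genes, EEF1B2 and EEF1G, which belong to the complex that recharges eEF1A with GTP, rose and EIF5A, which helps stalled ribosomes form peptide bonds, fell. EEF1B2 read 979, 1188 and 938 FPKM in NC+DMSO and 1642, 1900 and 1655 FPKM in NC+VCR, with no overlap (log2 fold change 0.75, SE 0.11, adjusted p = 0.000443). EIF5A (chr17:7306999-7312463 in GENCODE 29, plus strand) read 117, 118 and 102 FPKM in NC+DMSO and 41.4, 34.7 and 46.9 FPKM in NC+VCR. This was the largest fall among the 42 in NC cells, with a log2 fold change of −1.44 (SE 0.14, adjusted p = 3.42e-05). Copies and close relatives of EIF5A matched by name held 13.9% to 24% of the family's FPKM, and those of EEF1B2 14.2% to 19.5%.

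Of the genes of start site selection and subunit joining, EIF1AX alone was called. It encodes eIF1A, which keeps the scanning complex open, and read 57.9, 50.0 and 51.6 FPKM in NC+DMSO and 21.2, 27.9 and 21.2 FPKM in NC+VCR. All 3 VCR libraries were below all 3 DMSO libraries (log2 fold change −1.16, SE 0.14, adjusted p = 0.00011). The copy EIF1AXP1 held 28.1% to 46.3% of the pair and went the same way, from 33.5 ± 2.94 to 13.6 ± 4.12 FPKM.

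Of the cap-binding and helicase genes, EIF4A2 rose and EIF4EBP1 fell. EIF4A2, an RNA helicase related to eIF4A1, read 235, 208 and 247 FPKM in NC+DMSO and 362, 453 and 372 FPKM in NC+VCR, without overlap (log2 fold change 0.77, SE 0.13, adjusted p = 0.000954). EIF4EBP1 changed by −0.98 (SE 0.18, adjusted p = 0.00166). Outside these groups, EIF2S2, the beta subunit of eIF2, rose by 0.31, EIF2B3, the gamma subunit of eIF2B, fell by 0.40, and the release factor ETF1 fell by 0.54. EIF3H, ETF1 and EIF2B3 passed the test in 14, 15 and 13 of 23 alternative settings.

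**Figure D2:**
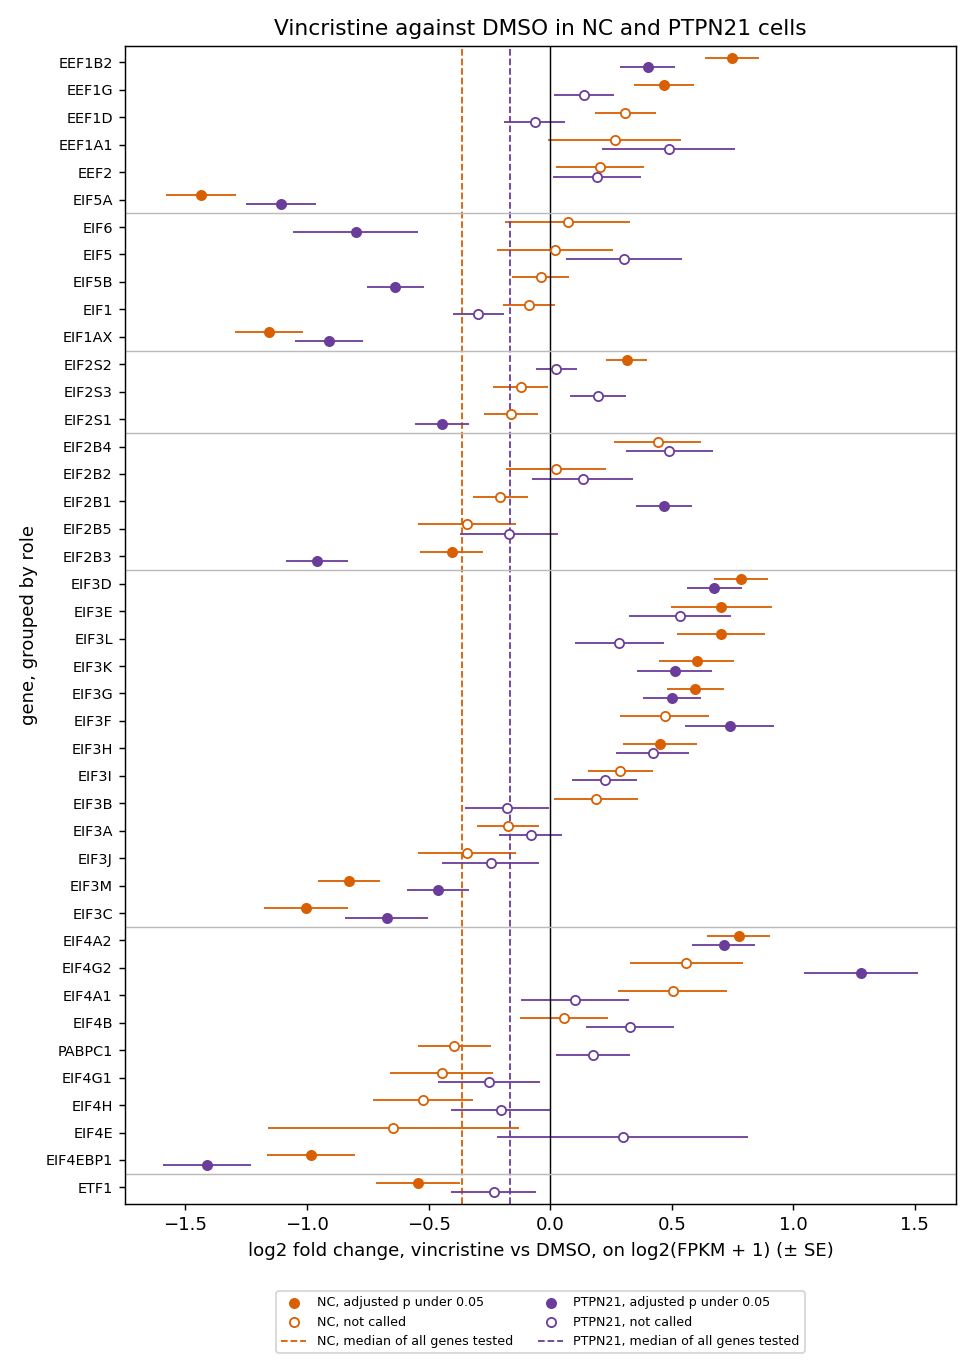
Points give the log2 fold change of each of the 42 factors after VCR on the log2(FPKM + 1) scale, with its SE, in NC cells (orange) and PTPN21 cells (purple), filled where the adjusted p was under 0.05. The dashed lines, the medians of all tested genes, lie at −0.36 and −0.17, and EIF5A, EIF1AX and EIF4EBP1 lie far to their left in both cells.

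VCR in PTPN21 cells raised EIF4G2, EIF3F and EIF4A2 and lowered EIF4EBP1, EIF5A and EIF2B3 most. The fold changes share no library with the NC comparison. The SE of each gene came from the fit of all 4 groups, so both sets of calls rest on the same SE. Of the 42, 8 rose and 9 fell, 17 called where 28.5% of all tested genes were, 9.22% higher and 19.3% lower. The median was 0.14, against −0.17 over all tested genes, and 22 of the 42 did not overlap between the groups, against 50.4% of all genes. Median ratio scaling gave 13 higher and 5 lower, with 13.7% of all genes higher and 12.5% lower, and quantile normalization gave 9 and 5, with 14.2% and 13.3%.

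EIF4G2, an eIF4G relative that lacks the site for eIF4E, read 21.4, 39.3 and 30.2 FPKM in PTPN21+DMSO and 77.8, 85.5 and 57.9 FPKM in PTPN21+VCR. The groups were apart, with a log2 fold change of 1.28 (SE 0.23, adjusted p = 0.00188). EIF4A2 read 153, 194 and 191 FPKM with DMSO and 298, 319 and 266 FPKM with VCR (0.71, SE 0.13, adjusted p = 0.00189). EIF4EBP1 went the other way, from 521, 413 and 440 FPKM to 157, 172 and 184 FPKM. Its VCR libraries were all below its DMSO libraries (−1.41, SE 0.18, adjusted p = 0.000186).

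Of the eIF3 subunits, EIF3D, EIF3F, EIF3G and EIF3K rose by 0.50 to 0.74, and EIF3C and EIF3M fell by 0.67 and 0.46. EIF3F was low throughout, at 8.04, 8.89 and 8.90 FPKM with DMSO and 14.2, 18.4 and 12.9 FPKM with VCR. The groups did not overlap (0.74, SE 0.18, adjusted p = 0.0108), though copies held 11.7% to 31.9% of the family's FPKM. EIF3C read 255, 257 and 258 FPKM with DMSO and 161, 160 and 160 FPKM with VCR, a tight set of values in both groups.

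EIF5A read 119, 96.8 and 89.1 FPKM in PTPN21+DMSO and 50.6, 44.3 and 44.2 FPKM in PTPN21+VCR, again without overlap (−1.11, SE 0.14, adjusted p = 0.000204). EIF2B3 read 242, 202 and 223 FPKM with DMSO and 130, 99.5 and 114 FPKM with VCR, and its groups were apart as well (−0.96, SE 0.13, adjusted p = 0.000248). EIF2B1, the alpha subunit of the same eIF2B complex, rose by 0.47, and EIF2S1, the eIF2 subunit that stress kinases phosphorylate, fell by 0.45. Of the start site selection and joining genes, EIF1AX fell by 0.91, EIF6, which keeps free large subunits apart from small ones, by 0.80, and EIF5B, the GTPase that joins the subunits, by 0.64. EIF1AX read 41.8, 48.2 and 48.6 FPKM with DMSO and 23.7, 26.1 and 22.6 FPKM with VCR, and the groups were apart. EIF6 stood high in PTPN21+DMSO replicate 1, at 78.5 FPKM against 37.7 and 40.7 in the others, and passed in 14 of 23 alternatives.

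**Figure D3:**
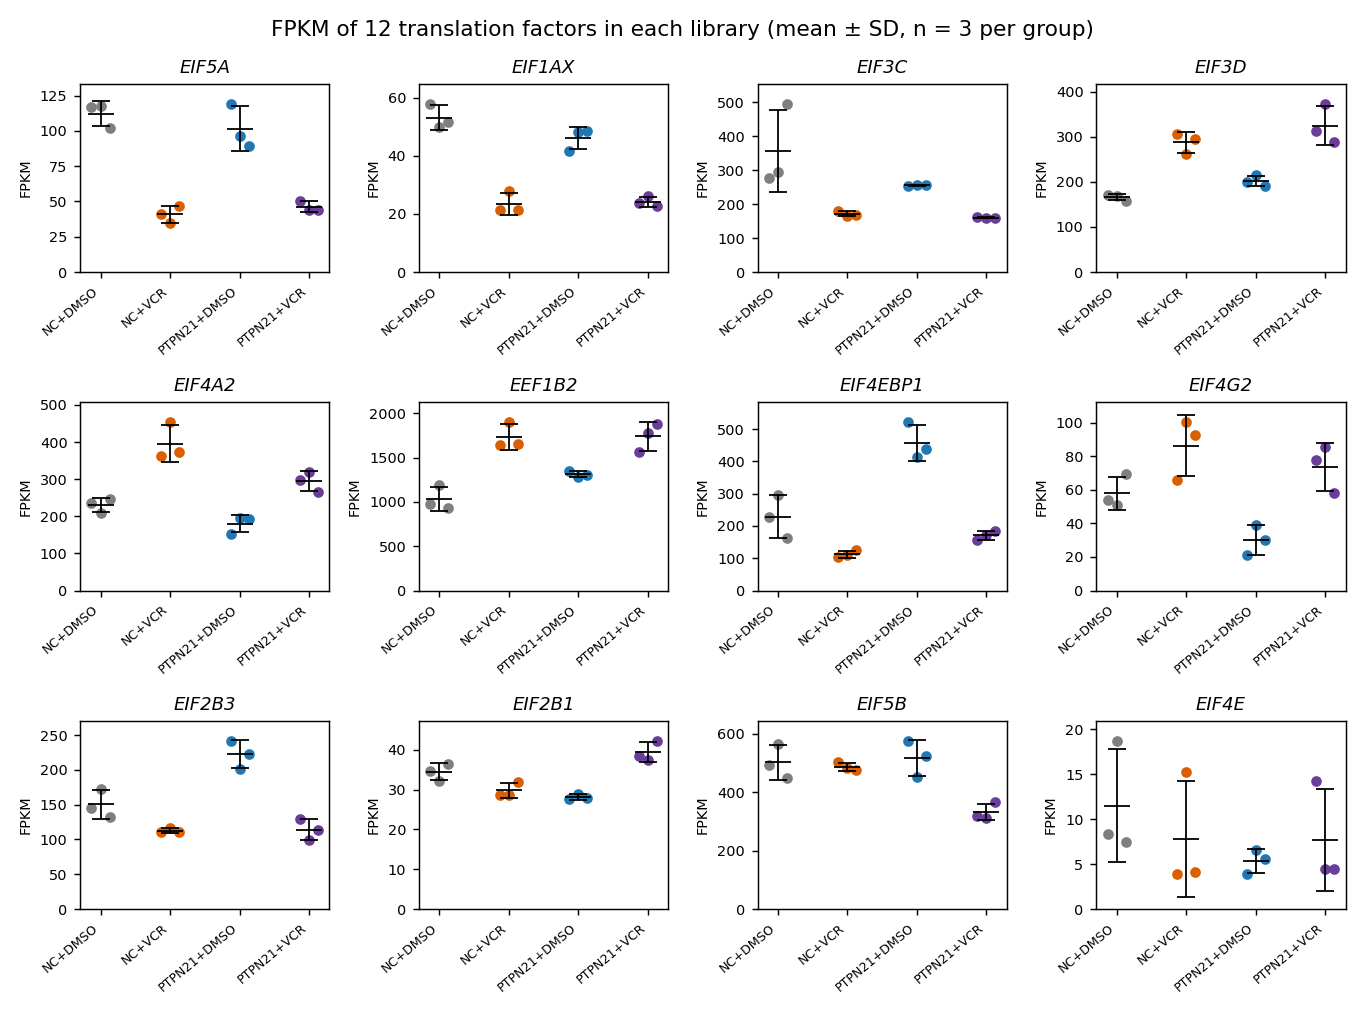
FPKM of 12 factors in each of the 3 libraries per group, with mean ± SD (n = 3), each axis starting at 0. EIF5A, EIF1AX, EIF3C and EIF4EBP1 are lower with VCR in both cells, EIF2B1 is higher with VCR in PTPN21 cells, and EIF4E shows a single high library in 3 of the 4 groups.

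The responses of NC and PTPN21 cells were set side by side, with the SE of each gene shared by both comparisons. Called in both were 11 factors, 64.7% of the 17 in either comparison, and all 11 had the same sign. EIF3D, EIF3G, EIF3K, EIF4A2 and EEF1B2 were higher in both, and EIF5A, EIF1AX, EIF3C, EIF3M, EIF2B3 and EIF4EBP1 were lower in both. Over all tested genes, 2196 were called in both, 52.4% of the NC list and 66.4% of the PTPN21 list. Across the 42 factors, which are not independent replicates, the fold changes of the comparisons had a Pearson r of 0.77, against 0.69 across all genes, and 35 of the 42 had the same sign. Called in neither were 19.

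The difference between the responses, tested as the interaction of PTPN21 and VCR in limma, was called for none of the 42 at an adjusted p under 0.05, with 0.129% of all tested genes called and 8 of the 42 at an unadjusted p under 0.05. The share of all tested genes at that unadjusted threshold is not given here, so the 8 cannot be set against it. Chosen after the values were seen, EIF2B1 had the smallest p of the 42. It read 34.7, 32.2 and 36.5 FPKM in NC+DMSO against 28.7, 28.6 and 31.99 FPKM in NC+VCR, and 27.6, 28.95 and 27.8 FPKM in PTPN21+DMSO against 38.4, 37.5 and 42.2 FPKM in PTPN21+VCR. The interaction was 0.67 (SE 0.16, adjusted p = 0.128), so opposite directions in the pair of cells did not pass correction.

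**Figure D4:**
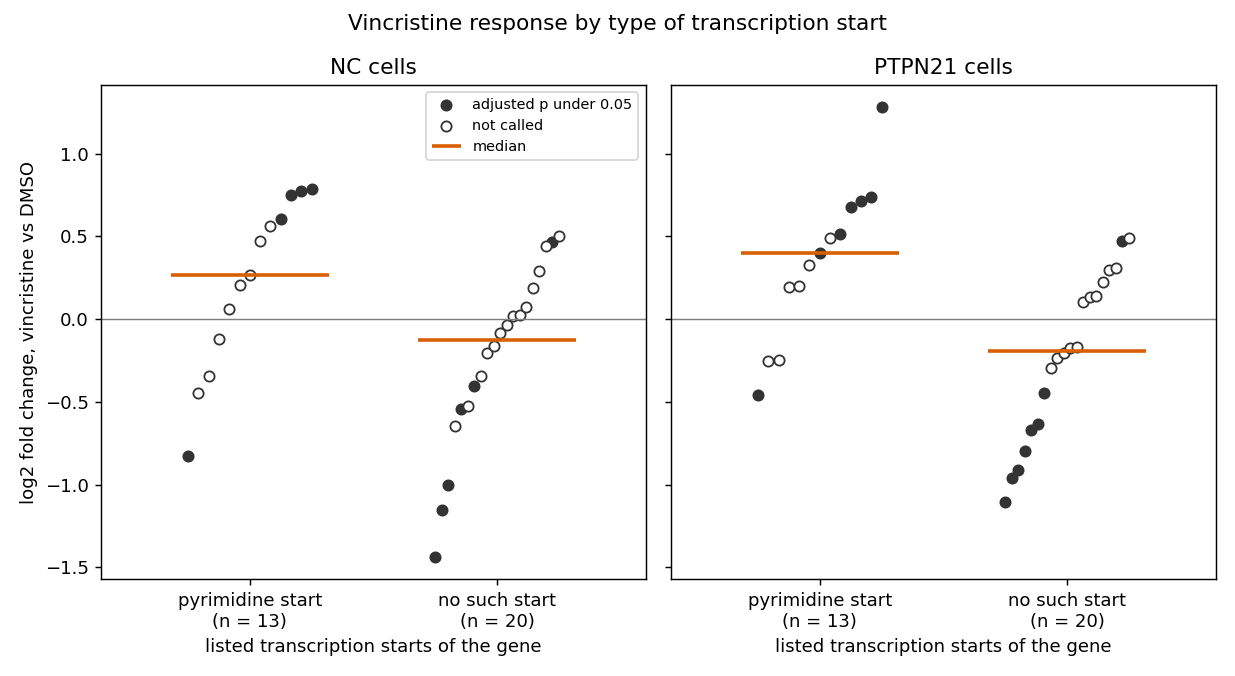
Log2 fold change after VCR on the log2(FPKM + 1) scale for 13 factors with a pyrimidine start and 20 with promoter entries but no such start, in NC (left) and PTPN21 cells (right), filled where the adjusted p was under 0.05. Lines mark medians, at 0.27 and −0.12 in NC cells and at 0.40 and −0.19 in PTPN21 cells.

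By start type, the factors are described here without a test. Factors without a promoter entry are left out of this split. Of these, EIF3E, EIF3G, EIF3H, EIF3L and EIF2S2 rose in NC cells, and EIF3G rose in PTPN21 cells. EIF4EBP1, also without an entry, fell in both. EEF1B2, EIF4G2 and EIF4G1 are counted as having a pyrimidine start but also have a listed start without the run. EEF1B2 is among the rises in both cells and EIF4G2 among those in PTPN21 cells. With a pyrimidine start, 4 of 13 rose and 1 fell in NC cells, where 9.25% of all tested genes with such a start rose and 25.9% fell. In PTPN21 cells 6 rose and 1 fell, against 10.1% and 17.9%. Without one, 1 of 20 rose and 5 fell in NC cells, against 6.23% and 30.3% of all such genes, and 1 rose and 7 fell in PTPN21 cells, against 8.5% and 20.3%. In NC cells the share of falls without a pyrimidine start, 25%, was thus near that of all genes of that type. EIF3M, whose run is shown above, was the factor with such a start that fell in both. Over all tested genes the medians lay closer together, at −0.32 with a pyrimidine start and −0.39 without in NC cells, and at −0.13 and −0.18 in PTPN21 cells. A match of letters describes the listed start and does not show that these cells used it.

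PTPN21 without VCR raised EIF4EBP1, EIF3K, EIF2B3, EEF1D and EIF2S1 and lowered EIF4G2, EIF4H, PABPC1 and EIF3A. These 9 of 42 stood where 6.34% of all tested genes were called, 2.65% higher and 3.69% lower, and the median of the 42 was −0.00, against −0.14 over all genes. Groups did not overlap in 23 of the 42, against 33.4% of all genes. This comparison rested on few libraries and settings: limma called 0 factors without PTPN21+DMSO replicate 1 (16 at an unadjusted p under 0.05), 1 without NC+DMSO replicate 1, NC+DMSO replicate 3 or PTPN21+DMSO replicate 3, and 0 when the other 2 groups were left out of the fit (20 at an unadjusted p under 0.05), whereas 14 were called without NC+DMSO replicate 2. The shares of all tested genes in these runs are not given here, so the counts do not show whether the loss was particular to the factors. TPM scaling gave 3 higher and 6 lower, with 1.92% and 7.24% of all genes, and median ratio scaling 8 and 2, with 3.64% and 1.3%.

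EIF4EBP1 read 228, 295 and 163 FPKM in NC+DMSO against 521, 413 and 440 FPKM in PTPN21+DMSO, above every NC library (1.03, SE 0.18, adjusted p = 0.0124, passed in 21 of 23 alternatives). EIF3K rose from 204, 216 and 152 FPKM to 359, 256 and 263 FPKM (0.62, SE 0.15, adjusted p = 0.0393), and EIF2B3 from 145, 173 and 133 FPKM to 242, 202 and 223 FPKM (0.57, SE 0.13, adjusted p = 0.0301). In each of these genes the PTPN21 libraries lay above all NC libraries. EIF3K passed in 11 and EIF2B3 in 15 of the 23 alternatives. EEF1D and EIF2S1, the other rises, passed in 5 and 13.

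The 4 that fell were EIF3A and 3 cap-side genes. EIF4G2, EIF4H, PABPC1 and EIF3A passed in 12, 15, 13 and 14 of the 23 alternatives. EIF4G2 read 53.7, 50.7 and 69.3 FPKM in NC+DMSO against 21.4, 39.3 and 30.2 FPKM in PTPN21+DMSO (−0.94, SE 0.23, adjusted p = 0.0379). EIF4H, which stimulates the eIF4A helicase, read 129, 120 and 169 FPKM against 55.2, 99.97 and 74.4 FPKM (−0.88, SE 0.20, adjusted p = 0.0311). PABPC1, the poly(A)-binding protein, read 458, 366 and 575 FPKM against 245, 326 and 294 FPKM, and, as in the other falls, no PTPN21 library reached an NC library (−0.68, SE 0.15, adjusted p = 0.0285).

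PTPN21 with VCR changed 1 of the 42, EIF5B, which fell, where 1.82% of all tested genes were called. The median of the 42 was 0.01, against 0.03 over all genes, and 15 did not overlap between the groups, against 22.5% of all genes. EIF5B read 502, 483 and 475 FPKM in NC+VCR and 320, 312 and 365 FPKM in PTPN21+VCR. The PTPN21 libraries were all lower (−0.55, SE 0.12, adjusted p = 0.0389), and the test was passed in 10 of 23 alternatives, with adjusted p from 0.00719 to 0.153. The limma call was 0 of 42 without any one of NC+DMSO replicate 1, NC+VCR replicates 1 and 2, PTPN21+DMSO replicate 3 and the 3 PTPN21+VCR libraries, with 8 to 13 factors at an unadjusted p under 0.05. The shares of all tested genes in the runs without a library are not given here. With DMSO, EIF5B read 492, 566 and 448 FPKM in NC cells and 576, 453 and 526 FPKM in PTPN21 cells, and the groups overlapped.

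In all, 27 of the 42 (64.3%) were called in at least 1 comparison, where 47.8% of all tested genes were, and 15 in none. The 15 include EEF1A1 and EEF2, the factors of the elongation cycle itself, EIF4E, EIF4G1, EIF4A1 and EIF4B of the cap complex, EIF1, EIF5, EIF2S3, EIF2B2, EIF2B4, EIF2B5, EIF3B, EIF3I and EIF3J. EIF4E, the cap-binding protein, varied widely within groups, at 8.37, 18.7 and 7.46 FPKM in NC+DMSO, 3.92, 15.2 and 4.12 in NC+VCR, 3.88, 6.55 and 5.57 in PTPN21+DMSO and 14.2, 4.42 and 4.46 in PTPN21+VCR. A single library was high in 3 of the 4 groups, and genes matched by name as copies, pseudogenes and the relative EIF4E1B, held 20.3% to 53.1% of the family's FPKM. For single genes an exact two-sided permutation test of 3 against 3 libraries cannot go below p = 0.1. The calls thus rest on the model of limma. It takes the spread of each gene over all 4 groups and moderates it with that of the other genes.

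A further list of 56 genes around the factors (other initiation and elongation factors, their regulators, and mitochondrial factors) had 52 tested. In NC cells VCR raised 2 and lowered 13 of them (25% lower, against 28.3% of all genes), with a median of −0.33 against −0.36 over all genes. In PTPN21 cells it raised 4 and lowered 12 (23.1% lower, against 19.3% of all genes), with a median of −0.13 against −0.17. The shares of falls were thus near those of all genes. EIF2AK3, which encodes PERK, the eIF2 kinase of the endoplasmic reticulum, rose in both, from 5.23, 2.80 and 5.97 FPKM to 10.3, 10.2 and 10.2 FPKM in NC cells (1.04, SE 0.27, adjusted p = 0.0117) and from 1.39, 3.20 and 2.34 FPKM to 9.60, 7.99 and 6.09 FPKM in PTPN21 cells (1.44, SE 0.27, adjusted p = 0.00228). The groups did not overlap in either. LARP1, which binds terminal oligopyrimidine mRNAs, fell from 14, 9.64 and 22.1 FPKM to 3.90, 2.19 and 3.73 FPKM in NC cells (−1.88, SE 0.36, adjusted p = 0.0022). In PTPN21 cells it read 3.86, 6.29 and 8.96 FPKM with DMSO and 2.55, 3.85 and 1.29 FPKM with VCR (−1.05, SE 0.36, adjusted p = 0.0472, passed in 8 of 23 alternatives), with the lowest DMSO library level with the highest VCR library.

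RPTOR, the raptor subunit of mTORC1, fell by 1.43 in NC cells (SE 0.32, adjusted p = 0.00497), from 2.59, 3.31 and 4.49 FPKM to 1.82, 0.123 and 0.368 FPKM. It was called lower in PTPN21 cells too, from 1.89, 2.04 and 2.26 FPKM to 0.835, 0.264 and 0.437 FPKM. These levels are low, and the NC estimate ran from −2.57 to −0.79 over the alternatives. MKNK2, a kinase of eIF4E, rose by 0.80 in NC cells, while in PTPN21 cells the mitochondrial release factor MTRF1 rose by 0.80 and EIF1AD fell by 1.05. PTPN21 without VCR changed 5 of the 52 (9.62%, against 6.34% of all genes). It raised the mitochondrial initiation factor MTIF3 by 0.79 and lowered 4, DDX3X, a helicase, by 1.42 and PABPC4 by 0.71 among them. None of these 5 calls was made by limma without NC+DMSO replicate 1 or 3 or PTPN21+DMSO replicate 1 or 3, where 11 to 17 of the 52 had an unadjusted p under 0.05. With VCR, where 1.82% of all genes were called, it lowered 1 of the 52, PPP1R15A, the phosphatase subunit that reverses eIF2 phosphorylation, from 418, 350 and 372 FPKM in NC+VCR to 215, 186 and 199 FPKM in PTPN21+VCR. The groups did not overlap, and the call held in all 23 alternatives (−0.92, SE 0.12, adjusted p = 0.0033). None of the 52 was called by limma in the interaction, and 7 had an unadjusted p under 0.05. The shares of all tested genes at an unadjusted p under 0.05, or without single libraries, are not given here.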

How the data were processed

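RNA from 12 libraries was sequenced. The authors deposited 1 table of FPKM values for 60671 genes with human Ensembl identifiers. The submitters' processing notes name fastp, Bowtie2 and the mouse build mm10, which does not go with those identifiers, and the counting program is not given in the sources used here. All value columns matched a sample (0 left out). Groups came from the labels. The factors and lists were chosen with earlier results of these data known. No read counts were available, so no count test was made. Depth was estimated from the step of low FPKM values of 8708 single-exon genes, in a search range narrowed after a first search. Between 36.3% and 47.0% of values were within 0.1 of a whole fragment, against 20% by chance, so these depths are approximate. Replicates correlated at r = 0.939 to 0.976. The 11591 genes whose mean reached 1 FPKM were tested as log2(FPKM + 1) in limma 3.58.1 (R 4.3.3, intensity trend, all 4 groups in 1 fit), with Benjamini-Hochberg adjustment over all tested genes and a threshold of 0.05. Fold changes on this scale understate the change of low genes. The fit was tested on simulated data. Per comparison, the 3 largest called rises and the 3 largest falls of the 42 and the 2 largest of the further list were named with full values, others by counts and ranges. Positions and transcript lengths came from GENCODE 29 by identifier (96.3% matched), start windows from RefSeq GRCh38.p14, and copies were matched by gene name. Summaries and plots used Python 3.11.15.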

Additional observations from a re-analysis of the deposited data

How the results depend on the processing

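Calls of the 42 factors after VCR kept within 1.5 times the reported 17 under each alternative run, with 14 to 19 in NC cells and 13 to 19 in PTPN21 cells when single libraries were left out. Calls for PTPN21 without VCR, reported as 9, were 2 with no filter on low values, 1 with no intensity trend, 0 with only the 2 groups compared, and 5 after a trend on GC content and length was removed, an alternative added after seeing the data. They were 0 to 14 without single libraries, and 5 without PTPN21+VCR replicate 1. Calls for PTPN21 with VCR, reported as 1, were 0 with no filter, 2 at a mean FPKM of at least 5, 0 with no intensity trend, 2 after the GC and length trend was removed, and 0 to 3 without single libraries, with 3 without NC+DMSO replicate 3. With the replicate number as a block, calls were 16 and 17 after VCR in NC and PTPN21 cells, and 1 and 0 for PTPN21 without and with VCR. The labels share only a number: deviations of same-numbered libraries correlated at −0.145 to 0.0583 over 18 pairs, with 0 above 0.1. The interaction gave 0 calls in each. The cause of these shifts was not tested. No named gene reversed its sign, and 98 of 585 planned values, 117 of 708 without a library and 13 of 59 after the GC and length correction, which covered 99.3% of genes, passed the threshold no more. The count test of DESeq2 was not run because the values are FPKM. The counts of factors in this section are given without the shares of all tested genes. Depth is only estimated, and 3 libraries per group limit the precision.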
